A study of Mus musculus with 12 samples.

Results

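The genes described here are 10 genes of iron and heme handling in mouse macrophages: Ftl1, Fth1, Slc40a1, Tfrc, Slc11a1, Slc11a2, Slc48a1, Blvrb, Steap4 and Hp. They were taken by symbol, and all 10 were found among the 54582 gene symbols that the 2 deposited count tables share. RNA sequencing had been done on bone marrow-derived macrophages, which per the labels were grown from the tibia of 6 to 8 week old animals, in 12 libraries that form 4 groups of 3. The KO + AC group is macrophages labelled as lacking Kif13b, which encodes a kinesin motor, co-cultured for 90 min with apoptotic cells (AC) at 1 macrophage to 5 apoptotic cells. The WT + AC group is wild-type macrophages in the same co-culture. The KO and WT groups are the same genotypes without apoptotic cells. The apoptotic cells were Jurkat cells, which derive from a human T cell leukaemia, and the co-culture is a model of efferocytosis, the uptake of dying cells. The labels give the altered genotype both as Kif13b-/- and as a knock down, and do not say which part of the gene was altered. They list serum at 12, 13 and 14% for the KO libraries and at 10, 10 and 11% for the WT libraries, and list no serum for the co-cultures. The KO and WT ranges of serum, which carries transferrin iron, do not overlap, so serum as labelled and genotype cannot be told apart without apoptotic cells. After WT library 2 each listed value is 1 higher than the one before it, so the labels are in doubt. It is not stated if replicates are different mice or cultures; p-values measure the spread between these libraries, which may be technical. The question was how these genes differ between genotypes at rest and during the co-culture, and whether the genotype difference itself changes.

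Macrophages recover iron from red cells and other engulfed cells. Iron that enters on transferrin is taken up by the transferrin receptor (Tfrc), reduced by STEAP metalloreductases and moved out of endosomes and phagosomes by the divalent metal transporters Slc11a2 and Slc11a1. Heme leaves the lysosome through Slc48a1 (HRG1) and is opened by heme oxygenase to release iron and biliverdin. That biliverdin is reduced to bilirubin mainly by Blvra, which is not a member. The member Blvrb reduces flavins and other forms of biliverdin. Haptoglobin (Hp) is a secreted protein that binds free haemoglobin. Iron is stored inside shells of ferritin light (Ftl1) and heavy (Fth1) chains, or leaves the cell through ferroportin (Slc40a1). Iron regulatory proteins bind a small RNA hairpin, the iron responsive element: in a 5′ untranslated region (UTR) they block translation, and in the 3′ UTR of Tfrc they protect the mRNA from decay.

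Because Ftl1, Fth1, Slc40a1, Tfrc and Slc11a2 are textbook carriers of that hairpin, its sequence was looked up in the transcripts of each member (GENCODE vM21, build GRCm38). The search was on the transcript strand for a bulged c, an upper stem of 5 base pairs in which G-T pairs were allowed, and the loop CAGTGN. The hairpins are shown with 5 flanking bases on each side, 5′ to 3′ along the transcript, with the 6 loop bases in capitals. Ftl1 and Fth1 each had 1 in the 5′ UTR, at chr7:45459780-45459806 on the minus strand and at chr19:9982733-9982759 on the plus strand.
Ftl1: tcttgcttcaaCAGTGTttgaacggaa
Fth1: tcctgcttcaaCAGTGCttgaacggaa
The hairpins of the ferritin pair were the same at 25 of 27 bases. Slc40a1 had 1 in the 5′ UTR, at chr1:45925466-45925492 on the minus strand.
Slc40a1: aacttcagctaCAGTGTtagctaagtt
Tfrc had 4 in the 3′ UTR, on the plus strand of chromosome 16, at chr16:32631220-32631246, chr16:32631599-32631625, chr16:32631664-32631690 and chr16:32631711-32631737.
Tfrc 1: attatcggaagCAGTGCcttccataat
Tfrc 2: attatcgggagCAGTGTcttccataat
Tfrc 3: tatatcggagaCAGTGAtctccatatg
Tfrc 4: attatcgggaaCAGTGTttcccataat
A match was present in 31 of 20899 genes with a 5′ UTR (0.148%) and in 129 of 21028 genes with a 3′ UTR (0.613%). The other 6 members, Slc11a2 included, had none by this pattern, which says only that these letters were not found in the annotated UTRs. The counts measure RNA abundance, so an effect on translation would not appear in them.

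The libraries held 17000976 to 18770757 counts, and the 10 members took 1.69 to 2.54% of them. Kif13b itself did not follow the labels in both conditions. Libraries labelled KO + AC held 1697, 1697 and 1721 Kif13b counts, against 1600, 1561 and 1634 in those labelled WT + AC, and those labelled KO held 281, 345 and 424, against 599, 546 and 535 in those labelled WT. The log2 fold change was therefore 0.13 (SE 0.04, adjusted p = 0.0261) with apoptotic cells and -0.59 (SE 0.14, adjusted p = 0.0087) without them, by edgeR's quasi-likelihood test. With apoptotic cells Kif13b went against the label, so KO means throughout the libraries labelled KO, and every genotype direction below rests on those labels. The co-culture libraries are in one table and the others in another, so an effect of apoptotic cells cannot be told apart from any difference in how the tables were made. The tables differed in the number of symbols with a count, 31787 to 32801 with and 18335 to 18540 without apoptotic cells. Replicates without apoptotic cells differed more among themselves: the biological coefficient of variation, the spread beyond counting error, was 0.0294 in the co-culture table and 0.117 in the other. KO library 3 was closer to WT library 1 (chi-square per degree of freedom 9.08) than to KO library 1 (24.8) or KO library 2 (38.7). In gene length too the KO libraries differed, since the correlation across genes of the deviation from the 6-library mean with log2 exon length was -0.53, -0.30 and 0.32 in KO libraries 1, 2 and 3, against 0.20 to 0.37 in the WT libraries. All 8 macrophage markers were detected in every group, with a summed level of 15440 to 15729 CPM in KO + AC, 12773 to 13550 in WT + AC, 30546 to 38054 in KO and 30060 to 32587 in WT. CPM are the usual depth-scaled counts, here after TMM scaling of all 12 libraries together.

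Ferritin heavy chain was the most abundant member per length of exon in every group and, by the exon lengths used, ferroportin the least. Fth1 averaged 4021 ± 197 CPM per kb in KO + AC, 3630 ± 230 in WT + AC, 5885 ± 1142 in KO and 4665 ± 160 in WT (SD, n = 3 each). Slc40a1 averaged 0.321 ± 0.0316 CPM per kb in KO + AC, 0.410 ± 0.0821 in WT + AC, 1.06 ± 0.130 in KO and 1.23 ± 0.256 in WT (SD, n = 3 each). Between these ends the order of mean level per kb was Ftl1, Slc11a1, Slc48a1, Blvrb, Tfrc, Slc11a2, Hp and Steap4 in all 4 groups. Some neighbours in the order did not separate. The ranges of Slc11a2 (27.8 to 29.4 CPM per kb) and Hp (23.7 to 28.2) overlapped in KO + AC, those of Slc11a1 (248 to 266), Slc48a1 (214 to 257) and Blvrb (146 to 277) overlapped in KO, and those of Slc11a1 (216 to 255) and Slc48a1 (218 to 236) overlapped in WT.

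**Figure D1:**
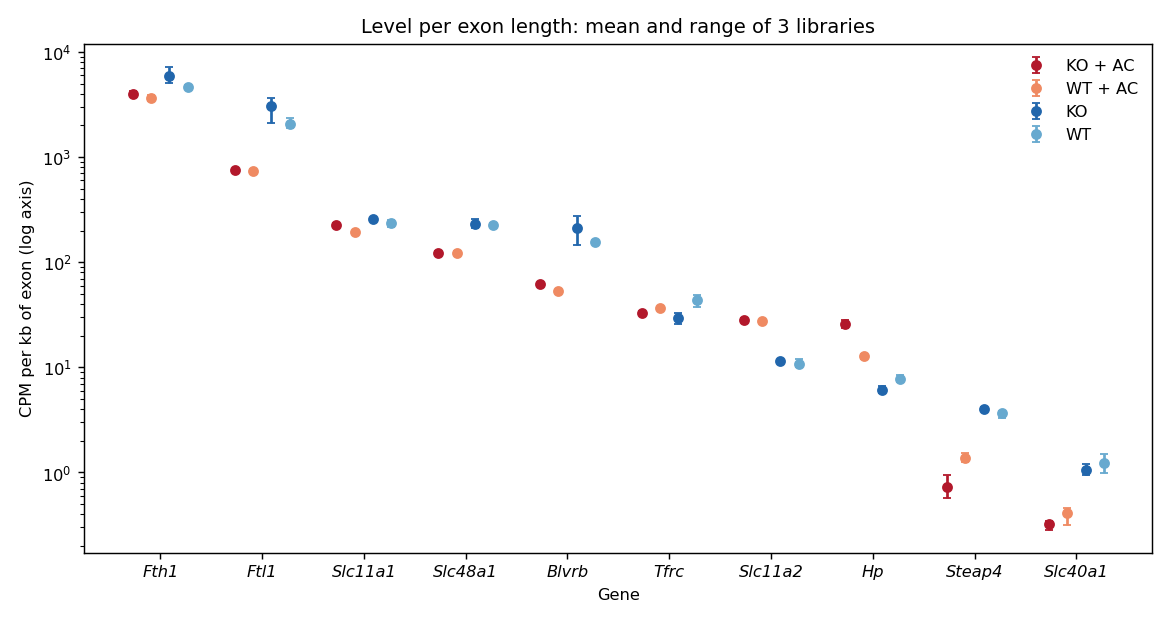
Level of each member in CPM per kb of exon (log axis), by group; points are means and bars the range of 3 libraries. Fth1 is the highest member in every group (3630 to 5885) and, by the exon lengths used, Slc40a1 the lowest (0.321 to 1.23). Hp is higher in KO + AC (25.9) than in the other groups (6.09 to 12.7).

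Without apoptotic cells, the light chain of ferritin was higher and the transferrin receptor lower in the libraries labelled KO. Of 16 alternative analyses, 7 lost the Ftl1 call and 5 the Tfrc call. With apoptotic cells, haptoglobin was 2.01 times as high and Steap4 was 0.523 times as high in KO + AC as in WT + AC. The co-culture went with changes in both genotypes: Slc11a2 and Hp rose, while Ftl1, Fth1, Slc40a1, Slc48a1, Blvrb, Steap4 and Slc11a1 fell, although another scaling turned the sign for Slc11a1 in both genotypes and for Fth1 and Hp in WT, as given with each gene. All 10 members passed the filter on low counts in every comparison. Calls are adjusted p under 0.05 by edgeR's quasi-likelihood test over all genes tested. In KO against WT, 1 member was higher and 1 lower, and of all 12640 genes tested 7.94% were called higher and 8.24% lower. In KO + AC against WT + AC, 4 members were higher and 2 lower, beside 6.58% and 4.75% of 16467 genes. In KO + AC against KO, 2 were higher and 7 lower, beside 49.6% and 36.7% of 16810 genes. In WT + AC against WT, 2 were higher and 8 lower, beside 48.3% and 36.7%. Testing whether the genotype difference changed with apoptotic cells (the interaction) called 2 members higher and 1 lower, beside 7.55% and 5.13%. The median log2 fold change of the members and of all genes tested was 0.11 and 0.02 for KO against WT, 0.02 and -0.02 for KO + AC against WT + AC, -0.72 and 0.32 for KO + AC against KO, and -0.61 and 0.25 for WT + AC against WT. The 2 genotype comparisons share no library, whereas the co-culture comparisons and the interaction share libraries with both.

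**Figure D2:**
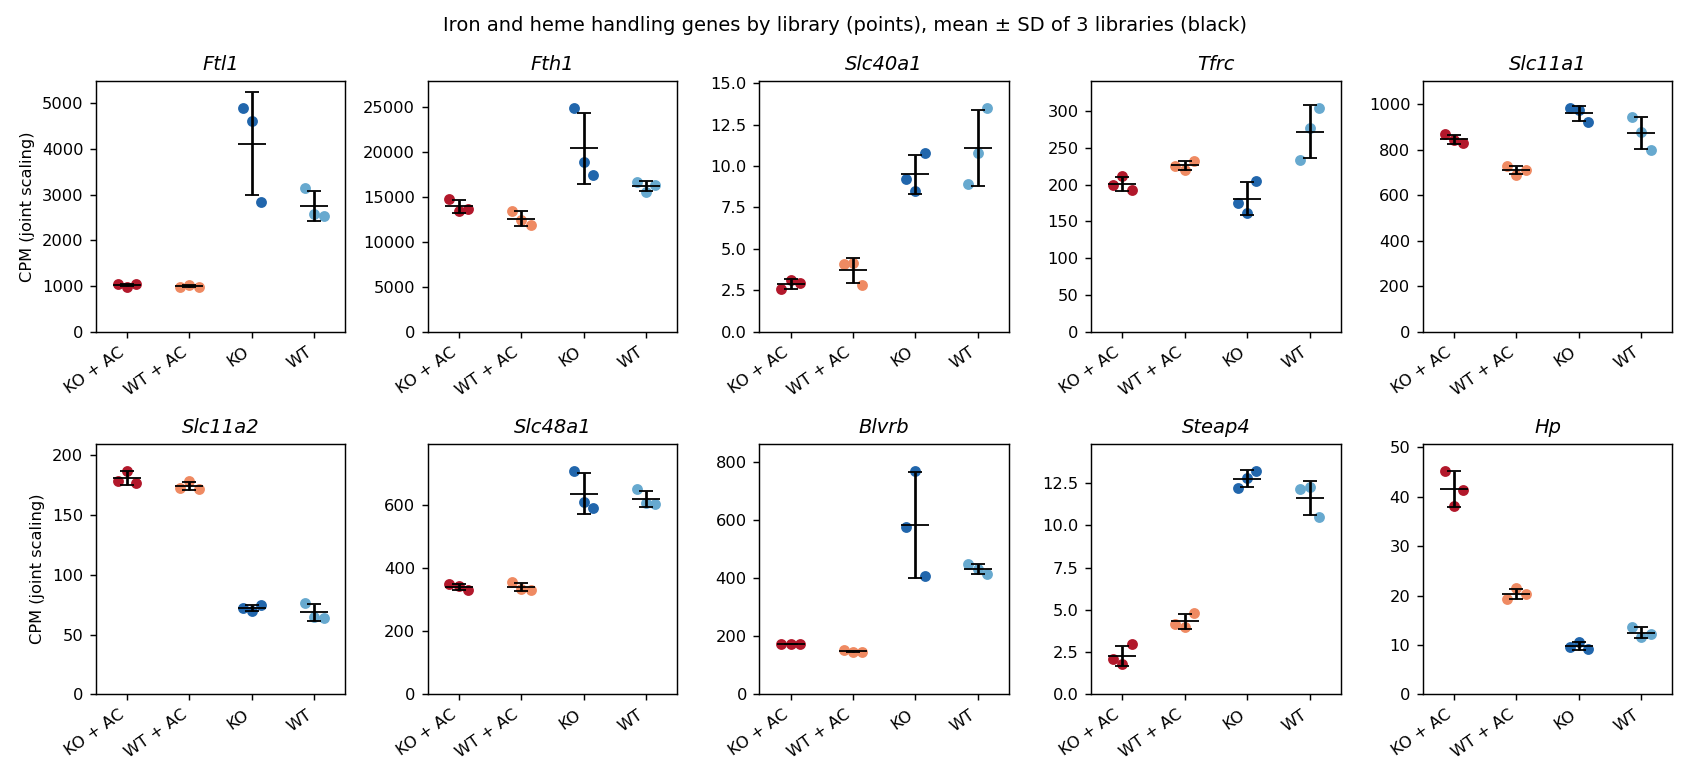
CPM of each member in each library (points), with mean and SD of the 3 libraries of each group in black; each panel has its own linear axis from 0. The co-culture groups separate from the others in most panels, and the 3 KO libraries spread most for Ftl1, Fth1 and Blvrb.

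Ferritin light chain, part of the iron store, was higher in KO than in WT, a call that rested on single libraries, and it fell with the co-culture. Ftl1 had 1037, 988 and 1038 CPM in KO + AC, 984, 1022 and 988 in WT + AC, 4903, 4621 and 2831 in KO, and 3138, 2585 and 2542 in WT. KO libraries 1 and 2 lay above all WT libraries, while KO library 3 lay among them, and the co-culture groups overlapped. The log2 fold change of Ftl1 was 0.58 for KO against WT (SE 0.17, edgeR adjusted p = 0.0254) and 0.01 for KO + AC against WT + AC (SE 0.03, adjusted p = 0.907, interval -0.06 to 0.07). The call in KO against WT was lost without KO library 1 (0.44, adjusted p = 0.145), KO library 2 (0.49, 0.0783), WT library 2 (0.54, 0.0752) or WT library 3 (0.53, 0.117), and after a correction for gene length and GC content (0.20, 0.305). With KO library 3 alone, without KO libraries 1 and 2, the value was 0.04; a single library is left there, so no p is given. The interaction of Ftl1 was -0.55 (SE 0.20, edgeR adjusted p = 0.078). It was called without KO library 3 (-0.76, adjusted p = 6.89e-06), and was -0.02 without KO libraries 1 and 2. Ftl1 fell by 2.01 on the log2 scale in KO + AC against KO (SE 0.15, edgeR adjusted p = 1.09e-10) and by 1.46 in WT + AC against WT (SE 0.14, adjusted p = 1.26e-08). With the length and GC correction these were -3.31 and -3.14.

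Fth1, the heavy chain that oxidises iron for storage, had 14721, 13421 and 13701 CPM in KO + AC, 13466, 12412 and 11898 in WT + AC, 24920, 18849 and 17474 in KO, and 16662, 15573 and 16309 in WT. All KO libraries were above all WT libraries, and the co-culture groups overlapped by 1 library on each side. Its log2 fold change was 0.34 for KO against WT (SE 0.15, edgeR adjusted p = 0.123) and 0.12 for KO + AC against WT + AC (SE 0.04, adjusted p = 0.0337), and the second call was lost without KO + AC library 1 (0.09, adjusted p = 0.259), WT + AC library 2 (0.11, 0.188) or WT + AC library 3 (0.09, 0.233), and also with library totals (0.08, 0.349), DESeq2 (0.14, 0.219) and the fit of 12 libraries (0.15, 0.746). Without KO library 3, the KO against WT call was made (0.40, adjusted p = 0.0116), as it was in the fit of 12 libraries (0.34, 0.0186). In the co-cultures Fth1 fell by 0.55 in KO + AC against KO (SE 0.10, edgeR adjusted p = 2e-05) and by 0.36 in WT + AC against WT (SE 0.10, adjusted p = 0.00211). Scaling by library totals alone ended both calls, at -0.10 in KO + AC against KO (adjusted p = 0.268) and 0.05 in WT + AC against WT (adjusted p = 0.606). The ratio of Fth1 to Ftl1 counts needs no depth scaling between libraries, but the 2 genes differ in length and GC content. It was 13.2 to 14.2 in KO + AC and 12.0 to 13.7 in WT + AC. Without apoptotic cells it was 4.08 to 6.17 in KO and 5.31 to 6.42 in WT. The heavy chain thus made up more of the ferritin counts in all 6 co-culture libraries than in the other 6, which is also the split between the tables. With the length and GC correction, WT + AC against WT was -0.29 for Fth1 and -3.14 for Ftl1, in place of -0.36 and -1.46. Both chains have pseudogene copies that can share reads with them. Symbols of Ftl1 pseudogenes held 1.38 to 2.50% of the Ftl1 count, but their makeup differed between the tables: Ftl1-ps1 had 74 to 146 counts with and 707 to 1517 without apoptotic cells, and Ftl1-ps2 had 116 to 158 with and 9 to 23 without. Fth-ps2 had 163 to 265 counts with and 0 to 9 without apoptotic cells. Adding the pseudogene counts to their parent genes changed no call of Ftl1 or Fth1.

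Ferroportin, the only known iron exporter of mammalian cells, was low in every library. Slc40a1 had 49, 60 and 57 counts in KO + AC, 81, 83 and 57 in WT + AC, 136, 127 and 177 in KO, and 149, 176 and 218 in WT. Groups of the same condition overlapped, and the co-culture libraries were below all the others. The log2 fold change was -0.38 for KO + AC against WT + AC (SE 0.17, edgeR adjusted p = 0.146) and -0.21 for KO against WT (SE 0.17, adjusted p = 0.382). It was -1.72 for KO + AC against KO (SE 0.17, adjusted p = 5.96e-10) and -1.58 for WT + AC against WT (SE 0.16, adjusted p = 9.37e-10).

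Of the genes of iron entry, the transferrin receptor was lower in the KO-labelled libraries of both conditions. Tfrc had 199, 212 and 193 CPM in KO + AC, against 225, 220.5 and 233 in WT + AC, and 175, 161 and 205 in KO, against 234, 278 and 304 in WT. In each condition the groups were separate. Tfrc fell by 0.59 on the log2 scale in KO against WT (SE 0.13, edgeR adjusted p = 0.00751) and by 0.19 in KO + AC against WT + AC (SE 0.04, adjusted p = 0.00014). The first call was lost without KO library 1 (-0.57, adjusted p = 0.0563), without WT library 3 (-0.50, 0.0585) and with the length and GC correction (-0.22, 0.107). KO library 3 alone, against the 3 WT libraries, gave -0.41. In the fit of 12 libraries, whose spread is shared over all groups, the co-culture call was lost (-0.17, adjusted p = 0.652). The interaction was 0.42 (SE 0.14, edgeR adjusted p = 0.0409), and its call was lost in 16 of 21 alternatives. Tfrc was lower in WT + AC than in WT (-0.27, SE 0.10, adjusted p = 0.0129), whereas KO + AC against KO gave 0.16 (SE 0.10, adjusted p = 0.134). Both directions depended on the scaling: Tfrc in WT + AC against WT was 0.14 with library totals (adjusted p = 0.215), and in KO + AC against KO it was -0.64 with the length and GC correction (adjusted p = 2.69e-10).

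Steap4, a metalloreductase that reduces iron and copper, differed between genotypes in the co-culture. It had 40, 35 and 57 counts in KO + AC, against 82, 80 and 97 in WT + AC, and 180, 191 and 217 in KO, against 203, 200 and 169 in WT. In CPM these were 2.10, 1.82 and 2.96 in KO + AC, against 4.17, 3.98 and 4.84 in WT + AC, with no overlap, while KO (12.2 to 13.2) and WT (10.5 to 12.2) overlapped. Steap4 fell by 0.94 in KO + AC against WT + AC (SE 0.17, edgeR adjusted p = 6e-05), and was 0.14 in KO against WT (SE 0.15, adjusted p = 0.541, interval -0.17 to 0.44). The interaction was -1.05 (SE 0.22, edgeR adjusted p = 0.0024) and was called in all 21 alternatives. In KO + AC against KO Steap4 fell by 2.47 (SE 0.16, adjusted p = 2.42e-14), and in WT + AC against WT it fell by 1.42 (SE 0.14, adjusted p = 3.7e-10). Markers of fibroblasts and stromal cells also differed between KO + AC and WT + AC. The 10 markers summed to 272 to 293 CPM in KO + AC, against 393 to 432 in WT + AC, and to 1019 to 1318 in KO, against 673 to 831 in WT. Of 9 tested with apoptotic cells 6 were lower and 0 higher in KO + AC, of 10 tested without them 7 were higher and 0 lower in KO, and none of the 10 was at 0 in any group. Their part in the Steap4 result was not tested. In bulk RNA, fewer cells of a type and less RNA per cell cannot be told apart.

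Of the divalent metal transporters, Slc11a1 was higher in KO + AC than in WT + AC, and Slc11a2 rose with the co-culture. Slc11a1 (NRAMP1), which moves metal ions out of phagosomes, had 868, 842 and 829 CPM in KO + AC, against 729, 691 and 713 in WT + AC, and 984, 975 and 921 in KO, against 943, 879 and 799 in WT. The co-culture groups were separate and the others overlapped by 1 library. Slc11a1 was higher in KO + AC than in WT + AC (log2 0.23, SE 0.03, edgeR adjusted p = 1.11e-06), and KO against WT gave 0.14 (SE 0.13, adjusted p = 0.464, interval -0.13 to 0.40). In the fit of 12 libraries the co-culture call was lost (0.25, adjusted p = 0.199). The interaction, 0.12 (SE 0.12, adjusted p = 0.575), was not called, but with the length and GC correction it was 0.32 (adjusted p = 0.0172). With apoptotic cells the macrophage markers moved the same way, 5 of 8 higher and 0 lower in KO + AC, and their part was not tested. Slc11a1 fell by 0.18 in KO + AC against KO (SE 0.08, edgeR adjusted p = 0.0423) and by 0.30 in WT + AC against WT (SE 0.08, adjusted p = 0.00172). Both values changed sign with library totals, to 0.26 (adjusted p = 0.00344) and 0.11 (adjusted p = 0.201). The first call was lost when any 1 of the 6 co-culture libraries was left out (adjusted p = 0.0513 to 0.113). Of 22 alternatives for KO + AC against KO, 12 lost the Slc11a1 call and 1 changed its sign.

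Slc11a2 (DMT1), the transporter of endosomal ferrous iron, rose in the co-cultures of both genotypes. It had 179, 187 and 177 CPM in KO + AC, 172, 178 and 172 in WT + AC, 72.2, 69.9 and 75.1 in KO, and 76.5, 65.1 and 64.1 in WT. Genotypes overlapped within each condition, and every co-culture library was above every other library. The log2 fold change was 1.32 in KO + AC against KO (SE 0.09, edgeR adjusted p = 4.2e-14) and 1.34 in WT + AC against WT (SE 0.09, adjusted p = 3.68e-14). Between genotypes it was 0.03 with apoptotic cells (interval -0.04 to 0.10, adjusted p = 0.663) and 0.08 without (interval -0.17 to 0.33, adjusted p = 0.667). The interaction was -0.02, with an interval of -0.27 to 0.22.

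Of the heme genes, the lysosomal heme transporter Slc48a1 likewise changed with the co-culture by similar amounts in both genotypes. It had 349, 343 and 329 CPM in KO + AC, 356, 334 and 330 in WT + AC, 707, 607 and 589 in KO, and 648, 604 and 601 in WT. Its log2 fold change was -0.90 in KO + AC against KO (SE 0.09, edgeR adjusted p = 1.57e-10) and -0.86 in WT + AC against WT (SE 0.09, adjusted p = 4.04e-10). The interaction was -0.04, with an interval of -0.28 to 0.21. Genotypes overlapped in both conditions, at -0.02 with apoptotic cells (interval -0.09 to 0.05) and 0.04 without (interval -0.22 to 0.30).

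Blvrb, which reduces biliverdin and flavins, was higher in KO + AC than in WT + AC. It had 174, 173 and 175 CPM in KO + AC, against 151, 146 and 146 in WT + AC, and 575, 770.5 and 407 in KO, against 448, 431 and 415 in WT. The co-culture groups were separate and their libraries lay close together, while the KO libraries ranged from below all WT libraries to above them. The log2 fold change was 0.21 in KO + AC against WT + AC (SE 0.04, edgeR adjusted p = 1.4e-05) and 0.44 in KO against WT (SE 0.16, adjusted p = 0.0643). The second passed without KO library 3 (0.60, adjusted p = 0.00149), was 0.19 without KO library 2 (adjusted p = 0.454) and was -0.09 with KO library 3 alone. In the fit of 12 libraries the co-culture call was lost (0.24, adjusted p = 0.696). The KO against WT call was made in that fit (0.44, adjusted p = 0.0335) and with no filter on low counts (0.40, 0.0255). Blvrb fell by 1.75 in KO + AC against KO (SE 0.15, edgeR adjusted p = 2.05e-09) and by 1.55 in WT + AC against WT (SE 0.15, adjusted p = 1.29e-08).

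**Figure D3:**
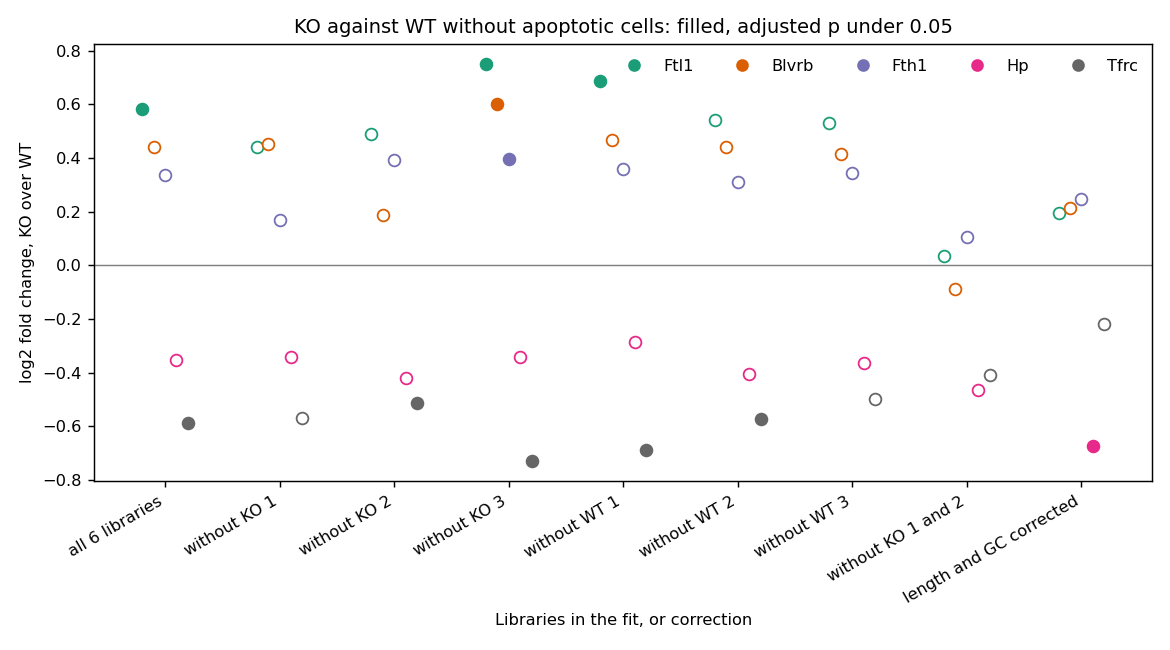
Log2 fold change of 5 members in KO over WT without apoptotic cells, for all 6 libraries and for each alternative on the horizontal axis; filled points have an adjusted p under 0.05. Ftl1, Blvrb and Fth1 lie near 0 without KO libraries 1 and 2 (0.04, -0.09 and 0.11), a setting that leaves 1 KO library and so shows no test, while Tfrc and Hp stay below 0 under every setting drawn.

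Haptoglobin was higher in KO + AC than in WT + AC, and its genotype difference changed between the conditions. Hp had 45.3, 38.1 and 41.4 CPM in KO + AC, against 19.4, 21.5 and 20.2 in WT + AC, and 9.64, 10.6 and 9.09 in KO, against 13.7, 11.6 and 12.3 in WT. The groups were separate in both conditions, with KO + AC the higher and KO the lower of its pair. The log2 fold change was 1.01 in KO + AC against WT + AC (SE 0.06, edgeR adjusted p = 1.07e-17) and -0.35 in KO against WT (SE 0.15, adjusted p = 0.104). The interaction was 1.39 (SE 0.15, edgeR adjusted p = 9.34e-07), called in all 21 alternatives with values of 1.27 to 1.69. With the length and GC correction the KO against WT value was called as well (-0.68, adjusted p = 0.00307), as it was in the fit of 12 libraries (-0.36, 0.0271). Hp rose by 2.09 in KO + AC against KO (SE 0.11, edgeR adjusted p = 3.18e-16) and by 0.70 in WT + AC against WT (SE 0.11, adjusted p = 9.52e-07), and the second turned to -0.44 with the length and GC correction (adjusted p = 5.13e-05). Haptoglobin is also made by neutrophils and monocytes, so their markers are given. The 12 neutrophil markers summed to 94.4 to 99.5 CPM in KO + AC, against 68.9 to 73.4 in WT + AC, and to 70.5 to 92.6 in KO, against 76.5 to 82.9 in WT. Of 3 tested with apoptotic cells 1 was higher and 0 lower, Ly6g was at 0 in all KO and WT libraries and Elane at 0 in WT + AC. The 6 monocyte markers summed to 57.7 to 59.9 CPM in KO + AC, against 52.8 to 60.1 in WT + AC, and to 22.7 to 27.6 in KO, against 40.0 to 48.5 in WT. The part of these cells in the Hp result was not tested.

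**Figure D4:**
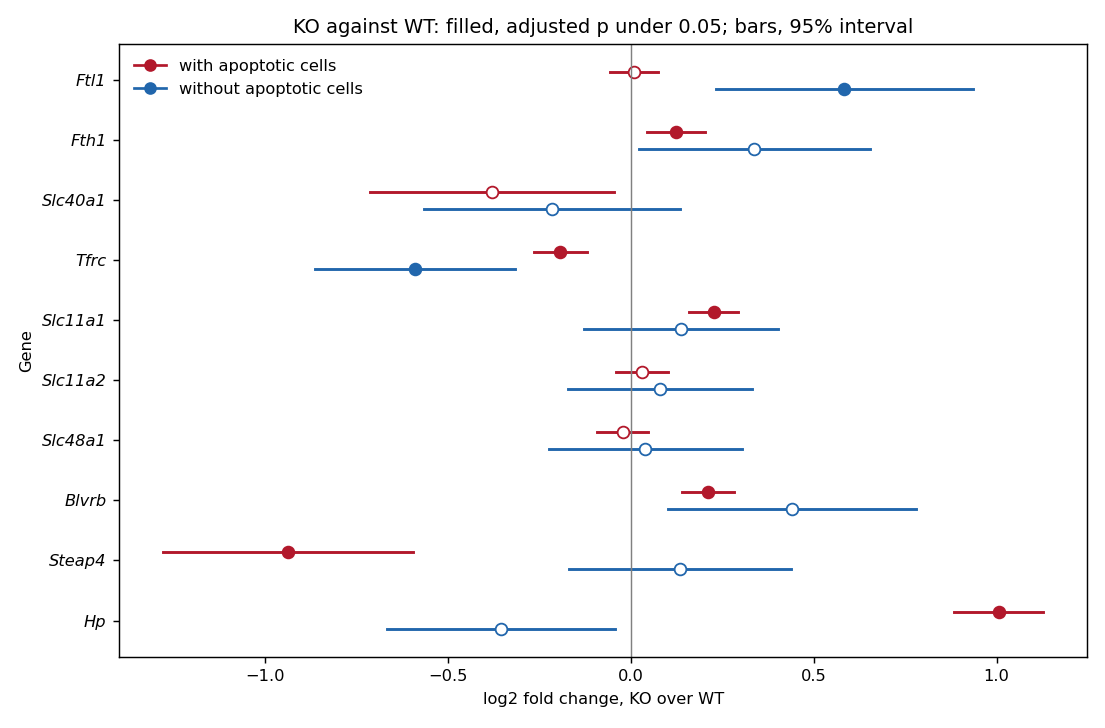
Log2 fold change of KO over WT for each member with (red) and without (blue) apoptotic cells; bars are 95% intervals and filled points have an adjusted p under 0.05. Hp lies at 1.01 with and -0.35 without apoptotic cells, and Steap4 at -0.94 and 0.14. For both genes only the value with apoptotic cells is called. Slc48a1 also changes sign, but lies near 0 in both conditions (-0.02 and 0.04).

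**Figure D5:**
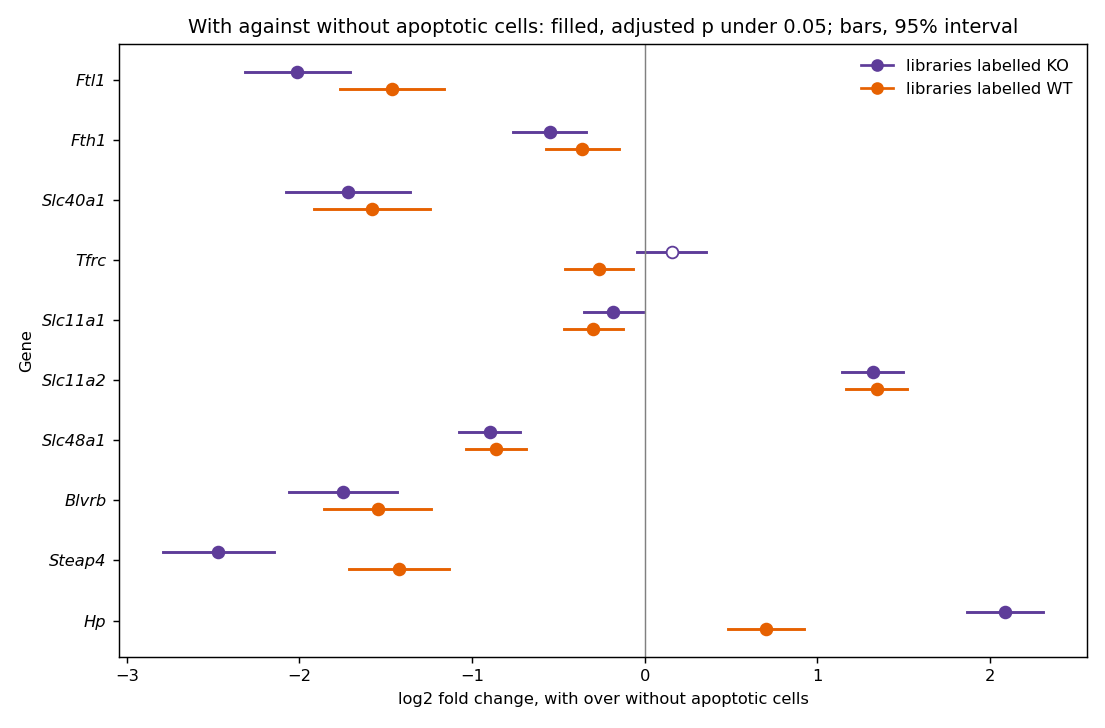
Log2 fold change with over without apoptotic cells for each member in libraries labelled KO (purple) and WT (orange); bars are 95% intervals and filled points have an adjusted p under 0.05. Slc11a2 and Hp lie above 0 and 7 members lie below 0 in both genotypes, and Tfrc lies at 0.16 in KO and -0.27 in WT; the signs of Tfrc and Slc11a1 in both genotypes, and of Fth1 and Hp in WT, turned under another scaling.

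The co-culture differences stand beside a change in several marker lists. The 10 T cell markers summed to 51.8 to 59.1 CPM in KO + AC, 53.9 to 64.2 in WT + AC, 13.8 to 18.7 in KO and 17.2 to 26.2 in WT, with Cd3d and Cd7 at 0 in WT. The 11 erythroid markers present in the tables, of 13 listed, summed to 4.79 to 5.83 CPM in KO + AC, 5.69 to 6.28 in WT + AC, 1.76 to 2.28 in KO and 1.55 to 2.51 in WT, and the globin Hbb-bs was at 0 in KO + AC, KO and WT. Osteoclast markers, 6 in all, summed to 377 to 382 CPM in KO + AC, 422 to 456 in WT + AC, 921 to 1160 in KO and 526 to 575 in WT. The part of these cells, and of RNA from the human apoptotic cells counted on the mouse genome, in the co-culture results was not tested.

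A wider list of 57 other iron and heme genes was set beside the members; 47 passed the filter for KO against WT, 50 for KO + AC against WT + AC and 52 in the fit of all libraries. In KO against WT, 6 were higher, 4 lower and 37 not called, with a median log2 fold change of 0.06, beside 7.94% higher and 8.24% lower of all genes tested. These 10 calls became 2 without KO library 1, 3 without KO library 2, WT library 2 or WT library 3, 18 without KO library 3, 6 with the length and GC correction and 16 in the fit of 12 libraries. Slc46a1, a carrier of folate and heme, had 20.2, 19.1 and 16.8 CPM in KO, against 11.4, 11.2 and 10.3 in WT (log2 0.77, SE 0.14, edgeR adjusted p = 0.00221). The heme synthesis enzyme Alad was higher as well (log2 0.64). The haemoglobin-haptoglobin receptor Cd163 was lower (-1.53, edgeR adjusted p = 0.016), at very low levels of 0.268 to 0.427 CPM in KO, against 0.868 to 1.10 in WT.

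In KO + AC against WT + AC, 5 of the 50 were higher, 6 lower and 39 not called, with a median of -0.01, beside 6.58% higher and 4.75% lower of all genes tested. These 11 calls became 6 without KO + AC library 1 or WT + AC library 3, and 0 in the fit of 12 libraries. The hypoxia factor Epas1, a regulator of iron genes, had 67.4, 68.9 and 64.6 CPM in KO + AC, against 86.9, 84.1 and 85.8 in WT + AC (log2 -0.38, SE 0.04, edgeR adjusted p = 1.14e-09). Slc25a37 (mitoferrin 1), which brings iron into mitochondria, was higher (0.27, SE 0.04), as was Ncoa4, the receptor for ferritin breakdown (0.20, SE 0.04). The endosomal ferrireductase Steap3, a relative of Steap4, was lower (-0.27, SE 0.04, edgeR adjusted p = 1.33e-05), with 59.7, 54.6 and 55.1 CPM in KO + AC, against 66.6, 65.3 and 68.9 in WT + AC.

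With apoptotic cells against without, 19 of the 52 were higher and 24 lower in libraries labelled KO, and 19 higher and 27 lower in those labelled WT, with medians of -0.22 and -0.35, beside 49.6% higher and 36.7% lower of all genes in KO, and 48.3% and 36.7% in WT. Slc25a37 had 255, 266 and 261 CPM in KO + AC and 219, 200 and 219 in WT + AC, against 10.6, 12.5 and 11.7 in KO and 15.3, 15.4 and 14.2 in WT. Its log2 fold change was 4.49 in KO and 3.83 in WT (SE 0.10 each). The zinc and iron importer Slc39a14 also rose (3.80 in KO, 3.40 in WT), while transferrin, Trf (-2.72 and -2.67), and Hfe, a partner of the transferrin receptor (-2.65 and -2.61), fell. By role, 8 of 14 uptake genes were higher and 4 lower in KO, and 8 higher and 5 lower in WT. These tallies mix in genes near the floor, named after their counts were seen. Tfr2 had 2 to 4 counts a library without and 9 to 32 with apoptotic cells. Likewise Cybrd1 had 1 to 5 and 12 to 34, and Hpx 1 to 3 and 6 to 13. Cd163 went down in the WT-labelled libraries, from 14 to 18 counts without to 6 to 7 with apoptotic cells. Of 8 heme synthesis genes tested, 1 was higher and 7 lower in each genotype. The higher was Alas1, the highest of the 8 in CPM, named after its values were seen. Alas1 had 1128 to 1215 CPM in KO + AC, against 378 to 437 in KO. In WT + AC it had 1133 to 1195, against 344 to 383 in WT. In each genotype, 3 of 7 mitochondrial iron genes were higher and 3 lower. Of 7 sensors 4 were higher and 2 lower, and of 5 storage and chaperone genes 2 and 2. Among the storage genes Ftmt was near the floor, with 0 to 1 counts a library without and 8 to 17 with apoptotic cells. All 3 heme breakdown genes were lower in both genotypes; these were named after their values were seen. They were the heme oxygenases Hmox1 (-0.57 in KO, -0.53 in WT) and Hmox2 (-1.79 and -1.59), and the biliverdin reductase Blvra (-1.92 and -1.86). How far Hmox1 fell depends on the scaling. Unscaled, it had 8123 to 8544 counts in KO + AC, against 9586 to 10298 in KO. In WT + AC it had 8819 to 9399 counts, against 10570 to 11139 in WT. The median of all genes moved by 0.44 in KO and 0.41 in WT when library totals replaced TMM, and fell by 0.59 in KO and by 0.58 in WT with the length and GC correction, and single genes moved by more: Slc40a1 became -2.69 in KO and -2.27 in WT with that correction, and Slc11a2 0.76 in both.

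Of the 52, 7 had a higher and 7 a lower genotype difference with apoptotic cells than without, beside 7.55% and 5.13% of all genes. These 14 calls ranged from 7 without WT library 3 to 21 without KO library 3. Slc25a37 was among the higher (interaction 0.66, SE 0.13, edgeR adjusted p = 0.00187). Slc46a1 (-1.02), Steap3 (-0.63) and Alad (-0.73) were among the lower.

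For each member, the gene most like it over the 12 libraries was found among 7806 genes by Pearson's r of log2 CPM. These were Rilpl2 for Ftl1 (r = 0.997), Pira2 for Fth1 (0.970), Gatc for Slc40a1 (0.988), Mbnl1 for Tfrc (0.938), Cactin for Slc11a1 (0.956), Samd4b for Slc11a2 (0.998), Hpcal1 for Slc48a1 (0.997), Capzb for Blvrb (0.998), Col6a1 for Steap4 (0.991) and App for Hp (0.971). The 12 libraries fall into those with and those without apoptotic cells, a split that most pairs share, so these values describe likeness over these libraries only.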

How the data were processed

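Read counts per gene symbol were measured by RNA sequencing of polyA RNA with 150 bp paired reads. The authors deposited raw counts per library, in 1 table of 6 libraries without and 1 table of 6 libraries with apoptotic cells. The submitters' processing notes name DESeq2 1.20.0, HISAT2 2.0.5, fastp and the build mm10. How reads were counted, on which annotation and with which strand setting is not given in the sources used here, so genes that share sequence or overlap are uncertain. Totals were 17000976 to 18770757 counts per library, and intervals cover the spread between libraries only.

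From the counts, KO was compared with WT within each table, and the effect of apoptotic cells and the interaction were fitted over the 54582 symbols shared by both tables. The test was edgeR 4.0.16 (R 4.3.3) quasi-likelihood, robust, two-sided, with TMM scaling, the filterByExpr filter and Benjamini-Hochberg adjustment over all genes tested. On simulated counts it was tried for the genotype comparisons and the interaction only. Those counts had the same spread for all genes and no length trend, unlike these data. All CPM are from the fit of 12 libraries. Exon lengths and transcripts are from GENCODE vM21. The alternatives were DESeq2 1.42.0, other scalings, no filter, a replicate block, a length and GC correction, pseudogene counts added, other sets of libraries in the fit, and each library left out. The labels do not say whether replicate numbers pair samples. Correlations of same-numbered deviations over the genes tested were -0.107 to 0.064. They cannot show whether the numbers pair samples, since the length trends of single libraries enter them.

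The named genes were all 10 members, Kif13b, up to 4 called genes per comparison of the list of 57 other iron and heme genes (smallest p, groups separate) and the gene nearest to each member. Of the list, 1 such gene is not reported here. The members, lists and tests were chosen with earlier results of these data known.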

Additional observations from a re-analysis of the deposited data

Results flagged for a closer look

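The genotype difference itself differed between the conditions for 3 members, by edgeR's test of the interaction over 12 libraries. For Hp the difference of log2 fold changes was 1.39 (adjusted p = 9.34e-07, range over 21 alternatives 1.20e-13 to 2.05e-05), with KO + AC above WT + AC in 3 of 3 libraries and KO below WT in 3 of 3. For Steap4 it was -1.05 (adjusted p = 0.0024, range 0.00016 to 0.0167), with KO + AC below WT + AC in 3 of 3 libraries. For Tfrc it was 0.42 (adjusted p = 0.0409, range 0.00131 to 0.541), with KO-labelled libraries lower in both conditions. In the co-culture libraries Kif13b went against the genotype labels, which all 3 directions rest on.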

How the results depend on the processing

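Of 950 values of single members under alternatives, 836 kept their direction and side of the threshold, 53 lost and 20 gained the call, and 41 changed sign, most of them not called. In all 21 alternatives the interaction calls of Hp and Steap4 held. The cause of the changes below was not tested.

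For KO against WT, 2 members and 2045 genes were called. With the length and GC correction these were 1 and 925, with the replicate block and that correction 1 and 1284, in the fit of 12 libraries 5 and 3999, and without KO libraries 1 and 2 they were 0 and 95, where the lone KO library is assumed to vary like the others. Leaving out each library gave 0 to 4 members and 312 to 4166 genes. For KO + AC against WT + AC, 6 members and 1866 genes were called, against 2 and 157 in the fit of 12 libraries, 1150 genes by DESeq2, and 5 to 6 members and 1192 to 2142 genes with each library left out. The interaction called 3 members and 2132 genes, against 2 to 5 and 1129 to 4330 with each library left out, and 1043 genes without KO libraries 1 and 2. By itself the replicate block, whose numbers are not known to pair samples, moved the resting count to 2496 genes. It also made 1 member call, the interaction of Ftl1 (-0.53, edgeR adjusted p = 0.0379).

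Changes of sign were, with the length and GC correction (values with the replicate block as well in brackets), Slc40a1 0.12 (0.12), Slc11a1 -0.066 (-0.067) and Slc48a1 -0.22 (-0.22) in KO against WT; Slc48a1 0.011 (0.011) in KO + AC against WT + AC; Tfrc -0.64 (-0.64) in KO + AC against KO; Hp -0.44 (-0.44) in WT + AC against WT; and interactions of Slc48a1 0.21 (0.22) and Blvrb 0.0035 (0.019). With library totals they were Slc11a2 -0.028 and Slc48a1 -0.074 in KO against WT, Ftl1 -0.038 and Slc11a2 -0.016 in KO + AC against WT + AC, Slc11a1 0.26 in KO + AC against KO, Fth1 0.046, Tfrc 0.14 and Slc11a1 0.11 in WT + AC against WT, and interactions of Slc11a2 0.012 and Slc48a1 0.0055. In the fit of 12 libraries Slc48a1 was 0.0019 in KO + AC against WT + AC. Without KO libraries 1 and 2 they were Slc48a1 -0.073 and Blvrb -0.088 in KO against WT, Tfrc -0.048 in KO + AC against KO, and interactions of Fth1 0.025, Slc48a1 0.059 and Blvrb 0.31. With each library left out, Slc48a1 ranged from -0.045 to 0.075 in KO against WT and from -0.039 to 0.014 in KO + AC against WT + AC, and the interactions of Slc11a2, Slc48a1 and Blvrb ranged from -0.16 to 0.020, from -0.12 to 0.017 and from -0.41 to 0.0024.

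With the length and GC correction, calls for KO + AC against KO split into 5970 higher and 8342 lower genes, in place of 8341 and 6162, and for WT + AC against WT into 5623 and 8678, in place of 8125 and 6161. Library totals gave 9942 and 4518, and 9741 and 4370. Slc40a1, Steap4 and, without apoptotic cells, Hp had the fewest counts of the members, 35 to 228 a library.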
